A study of Ovis aries with 10 samples.

Results

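A set of 12 genes was high in some ewes under progesterone alone and, in at least 1 other ewe of the same group, no higher than in ewes also given RU486. The genes were chosen by their levels in these same ewes, out of 23020 genes measured in endometrium, the mucosal lining of the sheep uterus. For each gene a reference level, m, was taken as the larger of 1 FPKM (a level scaled by gene length and library size, the reading of the unit used here) and the highest value among the RU486 ewes. A gene entered the set when at least 2 ewes under progesterone alone reached 4m and at least 1 lay at or below the highest RU486 ewe. All 12 are accounted for below.

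All 10 animals were ovariectomized ewes injected daily with 50 mg progesterone (P4) over 14 days. The P4 group (n = 5) received nothing else, and the P4+RU486 group (n = 5) also received 50 mg RU486 per day from day 8 to day 14. No group without progesterone was analysed here, so a value in P4+RU486 is not a level without the hormone. Each library is polyA RNA of dissected endometrium of 1 ewe, and replicate numbers only name the ewes. In whole tissue, fewer cells that express a gene and less RNA per cell cannot be told apart.

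Progesterone acts on the endometrium through the progesterone receptor, a nuclear receptor that switches genes on or off, and RU486 (mifepristone) occupies that receptor as an antagonist. RU486 also binds the glucocorticoid receptor. In the ewe, continued progesterone is known to remove its own receptor from the epithelia of the uterus, and the uterine glands then secrete proteins into the lumen.

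The table gives genes as Ensembl identifiers and pairs none with a name. Of its 23020 identifiers, 0 were found in the RefSeq gene table used as a reference. Which proteins the 12 genes encode is therefore not given, no sequence is printed, and the tissue could not be checked against marker genes. The genes are numbered from 1 to 12 by their mean log2(FPKM + 1) in P4, rank 1 being the highest.

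The summed expression per ewe ran from 680815 to 803425 FPKM in P4 and from 704242 to 965174 FPKM in P4+RU486. Relative depth, estimated from rarely seen genes on a scale with a mean near 1, ran from 0.793 to 1.12 in P4 and from 0.89 to 1.14 in P4+RU486. The shallowest library was P4 replicate 3, and P4+RU486 replicate 2 had the highest sum. No 2 libraries were identical.

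In P4 replicates 2 and 3 the rank 1 gene was the most abundant transcript in the whole table. This gene, ENSOARG00000004021, stood at 1333 FPKM in P4 replicate 1, 7223 in replicate 2, 11688 in replicate 3, 2112 in replicate 4 and 2295 in replicate 5. In P4+RU486 it stood at 1492, 544, 323, 210 and 1014 FPKM in replicates 1 to 5. P4 replicate 1 therefore lay below P4+RU486 replicate 1, and the other 4 P4 ewes lay above all RU486 ewes. By level among all genes it took place 1 in P4 replicates 2 and 3, place 33 in replicate 4, 22 in replicate 5 and 74 in replicate 1. In P4+RU486 its place ran from 72 in replicate 1 to 426 in replicate 4. It alone made up 1.45% of the summed FPKM of P4 replicate 3 and 0.924% of that of P4 replicate 2, against 0.184% to 0.337% in the other 3 P4 ewes and 0.0287% to 0.195% in P4+RU486. The mean was 4930 ± 4437 FPKM (SD, n = 5) under P4, and 717 ± 532 FPKM (SD, n = 5) with RU486 added. The highest ewe exceeded the lowest 8.77-fold within P4 and 7.11-fold within P4+RU486, both more than the 6.88-fold ratio of the means. Its log2 fold change was -2.65 (SE 0.71), a difference of mean log2(FPKM + 1) in which negative means lower in P4+RU486.

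**Figure D1:**
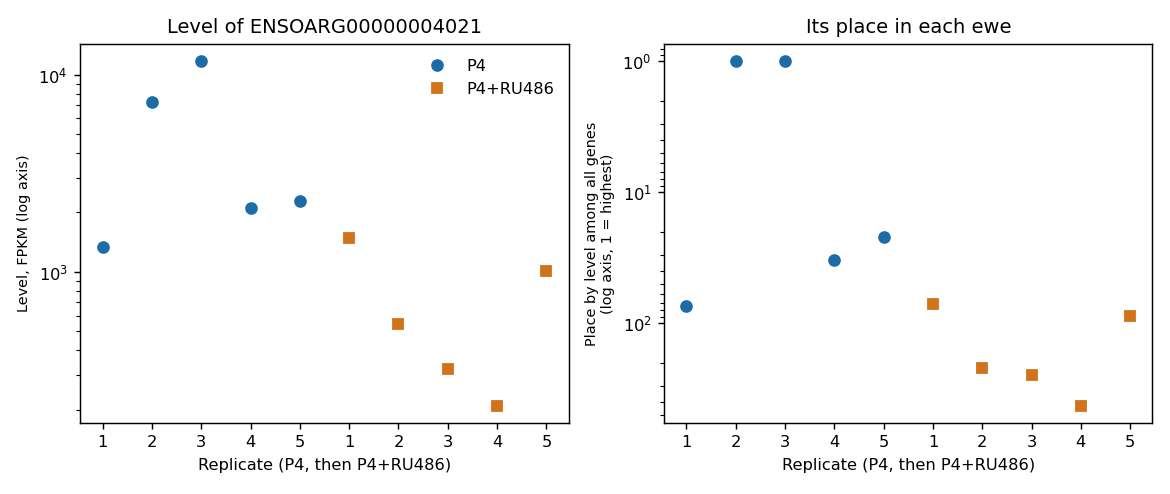
Left, level of ENSOARG00000004021 in FPKM on a log axis in each ewe (circles P4, squares P4+RU486); right, its place by level among all genes, also on a log axis with place 1 at the top. P4 replicates 2 and 3 stand at place 1. P4 replicate 1, at place 74, lies just below P4+RU486 replicate 1, at place 72, and above the other RU486 ewes.

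In 5 of the 12 genes, P4 replicate 1 was the only P4 ewe at or below the highest RU486 ewe. These are rank 1 and ranks 3, 4, 5 and 7. In ranks 1, 3, 4 and 5 only 1 RU486 ewe lay above P4 replicate 1. That ewe was P4+RU486 replicate 1 for ranks 1 and 4, replicate 5 for rank 3 and replicate 4 for rank 5. In rank 7, P4+RU486 replicates 2 and 3 lay above P4 replicate 1. The sharpest was rank 4, ENSOARG00000019088, with 0.68 FPKM in P4 replicate 1 and 30.5, 41.5, 11.6 and 52.5 FPKM in P4 replicates 2 to 5. Its P4+RU486 values were 1, 0, 0.38, 0 and 0.16 FPKM in replicates 1 to 5. The 4 high P4 ewes stood at 11.6 to 52.5 times m, while replicate 1 was inside the RU486 range. This gene had the lowest log2 fold change of the set, -3.77 (SE 0.83).

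Rank 3, ENSOARG00000015349, was at 6.75, 36.6, 66.8, 13.7 and 41.1 FPKM in P4 replicates 1 to 5. Its P4+RU486 values were 5.00, 5.09, 5.47, 6.42 and 7.42 FPKM. The RU486 ewes were even for this gene, the highest exceeding the lowest by 1.48-fold, and P4 replicate 1 fell between the fourth and the fifth RU486 replicate.

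Rank 5, ENSOARG00000002255, was at 1.86, 22.9, 6.82, 5.49 and 12.2 FPKM in P4 replicates 1 to 5 and at 0, 1.02, 0.49, 1.88 and 0.90 FPKM in P4+RU486. P4 replicate 1 lay just under the highest RU486 ewe, at 0.989 times its value. Rank 7, ENSOARG00000010567, was at 1.47, 11.4, 9.40, 8.13 and 2.14 FPKM in P4 and at 0.86, 1.55, 1.64, 0.45 and 0.71 FPKM in P4+RU486. Here replicates 2, 3 and 4 were high, while P4 replicate 1 lay inside the RU486 range and replicate 5 just above it.

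For 2 genes another P4 ewe was the lone low one. Rank 2, ENSOARG00000020184, was at 99.8, 5.17, 119, 66.7 and 31.6 FPKM in P4 replicates 1 to 5, and at 2.24, 15.3, 7.30, 1.11 and 9.45 FPKM in P4+RU486. P4 replicate 2 lay below 3 of the 5 RU486 ewes, while P4 replicate 1, low for the genes above, was the second highest of all. Its log2 fold change was -2.81 (SE 0.85). Rank 8, ENSOARG00000020858, was at 1.6, 7.45, 1.39, 14.2 and 4.68 FPKM in P4 and at 0, 1.27, 0.66, 0.42 and 1.55 FPKM in P4+RU486. The low P4 ewe was replicate 3, and replicate 1 was barely above the RU486 range at 1.03 times m.

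The other 5 genes each had at least 2 low P4 ewes. Rank 6, ENSOARG00000006710, was at 0.54, 30.6, 32.7, 0.47 and 5.01 FPKM in P4 replicates 1 to 5, and at 3.11, 0, 0.20, 0.45 and 3.92 FPKM in P4+RU486. The same pair of P4 ewes, replicates 2 and 3, was high as for rank 1, and the same pair of RU486 ewes, replicates 1 and 5, was the highest of its group. Rank 10, ENSOARG00000004453, was at 5.55, 0.62, 0, 2.30 and 9.42 FPKM in P4 and at 1.15, 0.41, 0.36, 0 and 0.63 FPKM in P4+RU486. It ran against rank 1 within P4, being low in replicates 2 and 3.

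In 3 genes only 2 P4 ewes stood out, and the other 3 were at or below the highest RU486 ewe. Rank 12, ENSOARG00000001169, was at 8.96 FPKM in P4 replicate 3 and 9.68 FPKM in P4 replicate 5, and at 0.05 FPKM in each of P4 replicates 1, 2 and 4. Its P4+RU486 values ran from 0 to 0.11 FPKM. This is an on-or-off pattern with no value in between, and the median of the groups was the same, 0.05 FPKM. Rank 9, ENSOARG00000014064, was at 0.39, 0, 1.04, 7.09 and 16.4 FPKM in P4 and at 0.92, 0.99, 0.44, 0.36 and 1.14 FPKM in P4+RU486. Rank 11, ENSOARG00000002469, was at 0.85, 0.92, 8.35, 6.96 and 0.21 FPKM in P4 and at 0.29, 0.46, 1.22, 0.56 and 0.23 FPKM in P4+RU486. For these 3 genes the mean misstates the typical ewe: the ratio of the P4 mean to the P4+RU486 mean was 6.48 for rank 9, 6.26 for rank 11 and 85.4 for rank 12, and the ratio of the medians was 1.13, 2.0 and 1.0.

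**Figure D2:**
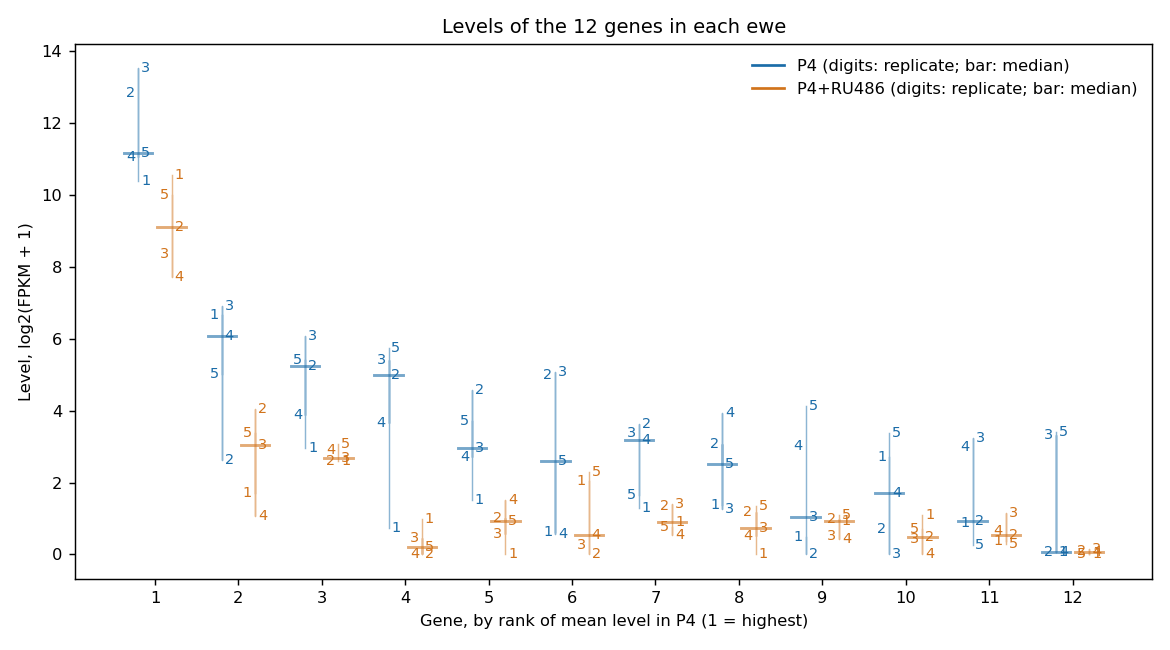
Level of each of the 12 genes on the log2(FPKM + 1) scale; digits are the replicate numbers of the ewes (blue P4, orange P4+RU486), bars the group medians, and thin lines the range. In every gene at least 1 blue digit lies inside or below the orange range, and the digit 1 is there in 9 of the 12.

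No single set of ewes carried the 12 genes. The ewes at 4m or more formed 11 different sets, and only the pair of replicates 2 and 3 occurred in 2 genes, ranks 1 and 6. P4 replicate 3 reached 4m in 8 genes, replicate 2 in 7, replicates 4 and 5 in 6 each and replicate 1 in 2. At or below the highest RU486 ewe were 9 of the 12 genes in P4 replicate 1, 5 in replicate 2, 3 in replicate 3, 2 in replicate 4 and 1 in replicate 5. P4 replicate 3 was the highest P4 ewe in 5 genes and replicate 5 in 4, and replicate 1 in 0. The median level of the 12 genes was 1.34 on the log2(FPKM + 1) scale in P4 replicate 1, and 3.1 to 3.57 in the other 4 P4 ewes. In P4+RU486 it ran from 0.54 to 1.01, so P4 replicate 1 lay above all RU486 ewes by this median but nearer to them than to its own group. That ewe's relative depth was 1.05 and its sum 726449 FPKM, both inside the range of the other P4 ewes. The levels compared here are those that chose the genes, and why this ewe was low in them was not tested.

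**Figure D3:**
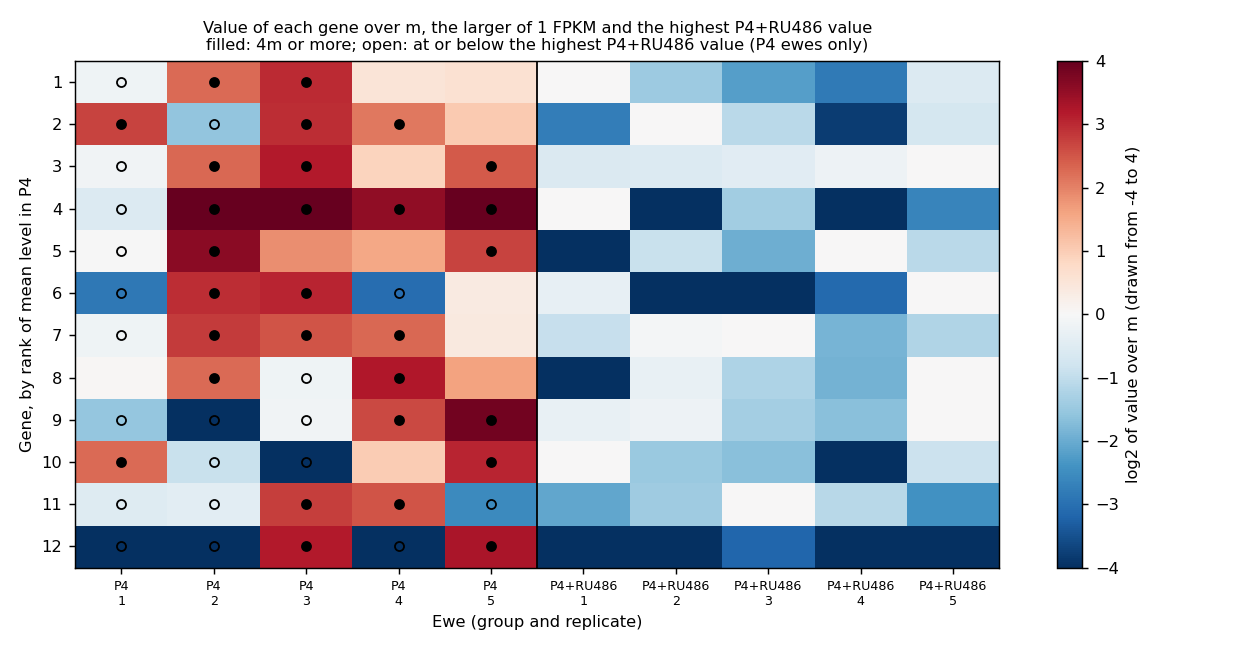
Each gene's value over m, as log2, in each ewe; colours are drawn from -4 to 4 and values beyond are shown at the ends. Filled circles mark the P4 values at 4m or more (2 in replicate 1, 8 in replicate 3) and open circles those at or below the highest RU486 ewe (9 in replicate 1).

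The low ewe was also counted over all expressed genes, without leaving out the set. Among the 14866 expressed genes (those whose log2(FPKM + 1) averaged 1 or more), 837 had exactly 1 P4 ewe at or below the highest RU486 ewe and the other 4 above it. In 510 of them, 60.9%, the low ewe was P4 replicate 3, and in 95 it was replicate 1. Replicate 2 was the low ewe in 104, replicate 4 in 66 and replicate 5 in 62. Among the 7 genes of the set with a lone low ewe, it was replicate 1 in 5, replicate 2 in 1 and replicate 3 in 1. The rule used these low values, and the difference from the expressed genes was not tested. When at least 2 P4 ewes had also to reach 2 times m, 51 of the expressed genes were left. The low ewe was replicate 3 in 17, replicate 1 in 14, replicate 2 in 11, replicate 5 in 6 and replicate 4 in 3. The 7 genes of the set with a lone low ewe are part of the 837 and of the 51. Of the 14 with replicate 1 low, 5 are therefore genes of the set. Replicate 3 was the commonest low ewe in both counts, with a smaller share, 33.3%, in the second. It was also the shallowest library, and the part of depth in this was not tested. In the 12 genes the same library was the one most often at 4m or more.

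**Figure D4:**
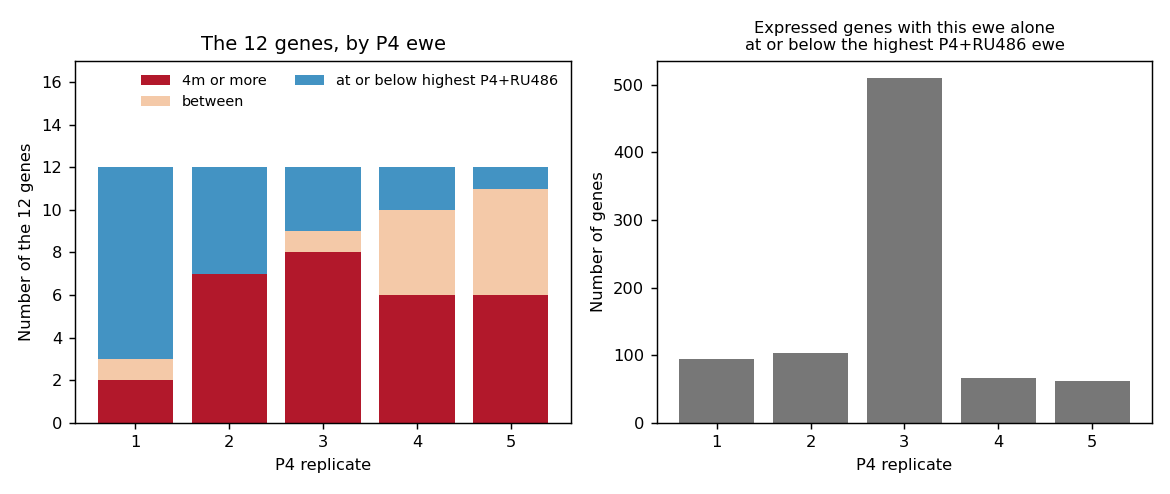
Left, for each P4 ewe, the number of the 12 genes at 4m or more, at or below the highest RU486 ewe, or between; right, the number of expressed genes in which that ewe alone lay at or below the highest RU486 ewe. Replicate 1 has the most low values on the left (9), and replicate 3 the tallest bar on the right (510).

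Correlations between pairs of genes of the set took both signs in each group. Over the 5 P4 ewes, Pearson correlations of log2(FPKM + 1) among the 66 pairs of genes had a median of 0.13 and ran from -0.88 to 0.94. Over the 5 RU486 ewes the same pairs had a median of 0.02 and ran from -0.94 to 0.96. In each group 5 pairs were at 0.8 or more and 3 at -0.8 or less, and 0 pairs were at 0.8 or more in both groups. The closest pair in P4 was ranks 1 and 6 (0.94 in P4, 0.78 in P4+RU486). Ranks 1 and 10 stood at -0.88 in P4 and 0.96 in P4+RU486, and ranks 4 and 5 at 0.82 and -0.94. These pairs are extremes picked from the 66. In P4+RU486, ranks 4, 5 and 10 reached at most 1, 1.88 and 1.15 FPKM. Strong correlations over 5 ewes can also arise by chance, and their number was not tested. All these correlations are descriptions over 5 ewes that share their libraries, and in P4 they come from the values that chose the genes.

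Spread within P4+RU486, where the rule used only the highest value, also differed between the genes. For 10 of the 12, more than 50% of the genes of like level in that group (mean log2 within 0.5) had a smaller SD. That highest value is also part of the SD, so these shares are not independent of the choice of the genes. The share was highest for ranks 6 (99.3%), 2 (98.7%), 1 (96.1%) and 4 (92.6%). It was 88.2%, 87.9% and 84.9% for ranks 5, 8 and 10, and 71.4%, 61.9% and 50.8% for ranks 11, 7 and 9. It was 43.4% for rank 12 and 21.7% for rank 3. Rank 1 was compared with only 103 such genes, and the others with 2308 or more. P4+RU486 replicate 5 was the highest ewe of its group in 4 of the 12 genes, replicates 1 and 3 in 3 each, and replicates 2 and 4 in 1 each.

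Because the levels chose the genes, ewes were also held out and the rule applied to the other 9, with m taken from the RU486 ewes kept. Without P4 replicate 3 the rule found 7 genes, and the held-out ewe reached 4m in 4 of them. P4 replicate 2 reached 4m in 3 of the 7 genes found without it, replicate 4 in 3 of 9, replicate 5 in 2 of 8 and replicate 1 in 1 of 6. Among all other genes inside the same range of mean level, a held-out P4 ewe reached 4m in 0.143% to 0.309%. The held-out P4 ewe lay at or below the highest RU486 ewe in 4 of 6 genes for replicate 1, 4 of 7 for replicate 2, 2 of 7 for replicate 3, 2 of 9 for replicate 4 and 1 of 8 for replicate 5. A further P4 ewe was therefore high for some of these genes and low for others, in each of the 5 cases. For replicates 1 to 5 it lay above the highest RU486 ewe in 33.3%, 42.9%, 71.4%, 77.8% and 87.5% of the genes found. Among other genes in the same range of level the shares were 21.02%, 18.2%, 13.3%, 18.4% and 21.3%. Low values were commoner among those other genes in each case. The genes found were chosen with other P4 ewes high, and those other genes were not. This difference therefore follows in part from the choice, and nothing is read from it. The range of level was also wide, taking in 5799 other genes for replicate 3 and 15336 for replicate 4.

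With an RU486 ewe held out, at most 1 of the genes found was at 4m in it. The rule found 12 to 17 genes without an RU486 ewe, and the held-out ewe reached 4m in 0 of 12 for replicate 1, 1 of 17 for replicate 2, 1 of 16 for replicate 3, 1 of 14 for replicate 4 and 0 of 14 for replicate 5. As shares these were 5.88%, 6.25% and 7.14% for replicates 2, 3 and 4, beside 0.117%, 0.0325% and 0.013% of other genes in the same range of level, and 0% for replicates 1 and 5, beside 0.0227% and 0.00653%. The held-out ewe exceeded the other 4 RU486 ewes in 3 of 12, 6 of 17, 7 of 16, 3 of 14 and 6 of 14 genes. As shares these were 25%, 35.3%, 43.8%, 21.4% and 42.9%. Among other genes in the same range of level they were 18.6%, 29.9%, 13.3%, 20.02% and 17.3%. The rule favours genes in which the RU486 ewes kept are low, which by itself makes a held-out ewe above them more frequent. The part of the choice in these shares was not tested. The genes found in these runs overlap, so the counts are not separate observations.

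The fold change of the group means served as a background only, since the rule used the same contrast. By limma on log2(FPKM + 1), 1 of the 12 genes, rank 4, was called lower in P4+RU486 at an adjusted p under 0.05, beside 1.39% of the 23019 genes tested. The limma adjusted p of rank 4 was 0.0478 with all ewes. It was 0.00283 without P4 replicate 1, its low ewe, and between 0.0585 and 0.112 when any other ewe was left out. Ranks 3 and 5 were called as well without P4 replicate 1, at a limma adjusted p of 0.0287 and 0.0289, and rank 2 was called without P4 replicate 2, its low ewe, at 0.042. Leaving out the low ewe removes the overlap that put these genes in the set. By the authors' deposited table, 9 of the 12 genes, ranks 1 to 8 and 12, had an adjusted p under 0.05, beside 4.04% of all genes with that call and a lower mean in P4+RU486. The median log2 fold change of the 12 genes was -1.71, and that of all genes tested was 0. Nothing is read from these counts about the set.

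The rule's limits lay close to other genes. In all, 34 genes had at least 2 P4 ewes at 4m or more, and 12 of them, 35.3%, had a low P4 ewe and form the set. In the other 22, where all P4 ewes were above all RU486 ewes, the lowest P4 ewe was replicate 1 in 8, replicate 3 in 6, replicate 4 in 4 and replicates 2 and 5 in 2 each. Of the 22, the gene nearest to the set had a lowest P4 value of 2.72 FPKM and a highest RU486 value of 2.67 FPKM. Inside the set, rank 5 was nearest to that limit. On the limit of 4m, the second highest P4 ewe of ranks 8, 10 and 1 stood at 4.81, 4.83 and 4.84 times m, and the 2 genes nearest outside stood at 3.91 and 3.90 times m.

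Outside the set, the gene whose levels over the 10 ewes were most like the mean profile of the 12 was ENSOARG00000014657, with a Pearson correlation of 0.97, the highest among 14855 expressed genes. It was at 1.53, 3.07, 4.42, 2.40 and 4.5 FPKM in P4 replicates 1 to 5 and at 0.11 to 0.48 FPKM in P4+RU486. Its groups did not overlap, and P4 replicate 1 was its lowest P4 ewe. That ewe was also the lowest of P4 in the mean profile by which the gene was picked. Its low value here is therefore not a separate observation. In all, 47 genes outside the set had a correlation of at least 0.9. These correlations span both groups, so the group difference is part of them.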

How the data were processed

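Endometrial polyA RNA of 10 ewes was sequenced from stranded mRNA libraries, per the labels' protocols. Tools listed in the submitters' processing notes, without their roles, are featureCounts 1.5.0, HISAT2 2.0.3, cutadapt 1.11 and edgeR, and the build listed is Oar_v3.1. For annotation and library scaling the sources used here give nothing. The deposited table holds 1 value per gene and ewe, read here as FPKM deposited by the authors because column sums differ and values are not whole; the file header names no unit, and TPM with genes removed cannot be told apart. Read depth is unknown, so no counting interval is given. The p-values deposited by the authors are edgeR adjusted p, per the file header.

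The rule was applied to the values as deposited. All 23019 genes above 0 in at least 1 ewe were fitted with limma 3.58.1 in R 4.3.3 on log2(FPKM + 1), pseudocount 1, 1 term for the group, trended empirical Bayes variances and Benjamini-Hochberg adjustment. This step was also tested on simulated data. Relative depth is the commonest ratio between libraries of values of at least 0.2 FPKM in genes above 0 in at most 4 ewes.

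The members were chosen with earlier results of these data known. The rule for names gave identifiers to the first 2 ranks and to the gene most like the set; the other identifiers are printed because each member is described. Marker and pathway lists fixed with it could not be used, since 0 identifiers matched. Alternatives tried were pseudocounts, a filter on mean level, rescaling, weights, other limits of the rule and leaving out each ewe.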

Additional observations from a re-analysis of the deposited data

Results flagged for a closer look

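In each of 7 groups of 5 values per ewe (summed expression, number of genes at 0 and relative depth in each treatment group, and the count of expressed genes with a lone low P4 ewe) the highest or lowest ewe was compared with the rest by Dixon's ratio. The levels of the 12 genes were left out, since they chose the genes. Chance flags about 1 in 20 such groups, or 0.35 of the 7. In 3 an ewe stood far from the others, and the measures are partly related.

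The count of expressed genes in which P4 replicate 3 alone lay at or below the highest RU486 ewe was 510, against 62 to 104 for the other P4 ewes. The relative depth of P4 replicate 3 was 0.793, against 1.04 to 1.12 in its group. The summed expression of P4+RU486 replicate 2 was 965174 FPKM, against 704242 to 765735 in its group.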

How the results depend on the processing

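The groups consist of different ewes, and the labels give no pairing of them, so no analysis was paired. The labels also give no replicate numbers, and those used here were assigned in sample order. The set depended on single ewes of both groups. The rule found 6 genes without P4 replicate 1, 7 without replicate 2 and 7 without replicate 3, and between 6 and 17 over all runs without 1 ewe. Of the 12 genes, 10 stayed without P4+RU486 replicate 1, 11 without replicate 4 and 10 without replicate 5. All 12 stayed without P4+RU486 replicate 2, and likewise without replicate 3. The rule found 24 genes at 3 times m, the 12 among them, and 6 at 6 times m. At 3 times m, P4 replicates 1 to 5 were high in 6, 13, 16, 10 and 10 genes. At 6 times m they were high in 1, 3, 4, 2 and 4, so replicate 5 was level with replicate 3. With a floor of 2 FPKM, P4 replicate 1 was high in 1 and replicate 4 in 3. Genes high in only some RU486 ewes numbered 13 at 3 times m and 3 at 6 times m. With a floor of 0.5 or 2 FPKM or median-ratio rescaling the set stayed within 1.5 times of 12. The median log2 fold change of the 12 genes stayed negative throughout, at -2.56 with a pseudocount of 0.1, -0.95 with a pseudocount of 5, and -2.12 to -1.58 without 1 ewe. Of the 12 genes, limma called 0 with a pseudocount of 5 or array weights, 2 with quantile normalisation, 4 with a filter at a mean log2 of at least 1, and 0 to 3 without 1 ewe (3 without P4 replicate 1, 1 without P4 replicate 2, 0 without any other); the authors' adjusted p called 9. Over all genes, 557 were called by limma, 319 of them lower in P4+RU486; array weights gave 1312 and 688, the authors' adjusted p 1611 and 931, and leaving out 1 ewe 181 to 1024 and 124 to 595. The total was 222, 234, 181 and 183 without P4 replicates 1, 2, 4 and 5, and 250, 1024, 202 and 360 without P4+RU486 replicates 1 to 4. The cause of these changes was not tested. Unknown read depth limits the genes near 1 FPKM most.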

Other observations

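With the groups exchanged, the same thresholds found 5 genes that were high in only some RU486 ewes. P4+RU486 replicate 2 reached 4 times the corresponding reference level in 4 of them, replicate 1 in 3, replicates 3 and 5 in 2 each and replicate 4 in 0. Replicate 4 was at or below the highest P4 ewe in 4 of the 5. It was also the RU486 ewe with the lowest median level of the 12 genes described above, 0.54 on the log2(FPKM + 1) scale. The values of this ewe took part in choosing both sets, so these are not separate observations. The set of 12 and the set of 5 were chosen on the same ewes, and the difference of their sizes was not tested.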
